A study of Mus musculus with 6 samples.

Results

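Mitosis and G2/M genes were followed in RNA-Seq libraries of mouse bone marrow-derived macrophages (BMDM). The members were fixed as a list of 60 gene symbols covering mitotic kinases and cyclins, spindle, kinetochore, chromosome and cytokinesis genes, and all 60 were found among the 55453 genes of the deposited count table. The knockout group (PP2Ac KO, 3 libraries) came from LysMcre PP2Ac fl/fl mice, in which exon 1 of *Ppp2ca*, the gene of the catalytic subunit of protein phosphatase 2A (PP2A), is flanked by loxP sites and cre is driven by the Lysozyme 2 promoter of myeloid cells. The control group (PP2Ac WT, 3 libraries) came from WT mice that carried neither cre nor the floxed alleles, and the labels give strain C57BL/6 for all 6 libraries. The study asked how loss of PP2Ac changes the response of macrophages to the STING agonist cGAMP. Its methods describe BMDM collected on day 7 from mice of both sexes aged 6 to 10 weeks, grown in M-CSF or in medium conditioned by L929 fibroblasts, and RNA-Seq after 10 µg/mL cGAMP for 4 hours, while the labels themselves give no treatment and neither source says which growth medium was used. The knockout and WT mice came from separate suppliers, so genotype, cre and colony cannot be told apart.

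BMDM grow from marrow progenitors under M-CSF, divide while they mature, and then largely leave the cell cycle, so a culture can hold cycling and resting cells. Most mitotic genes are silent in resting cells and are transcribed in G2, when the MuvB complex with B-MYB (*Mybl2*) and FOXM1 (*Foxm1*) occupies their promoters. In mitosis CDK1 with cyclin B phosphorylates its substrates, the checkpoint holds the anaphase-promoting complex (APC/C) until kinetochores are attached, and PP2A with B55 or B56 subunits is a phosphatase that reverses these phosphorylations.

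The libraries held 35257156 to 47390899 counts. *Ppp2ca*, the targeted gene, had 47, 33 and 38 counts in the KO libraries against 10654, 8913 and 8279 in the WT libraries, in keeping with the labels. The 14 macrophage markers all passed the filter on low counts and summed to between 9253 and 11281 CPM per library (CPM are counts divided by library size, scaled by edgeR's TMM factors). These factors were 0.910 to 0.937 in the KO libraries and 1.05 to 1.10 in the WT libraries, which raises KO sums of CPM against WT sums. No library was left out. The methods state biological triplicates for cell-based experiments, but no source says whether replicates came from separate mice or cultures, so p-values measure the spread between these libraries.

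The mitosis and G2/M genes were at a lower level in PP2Ac KO BMDM in most members. All 60 passed the filter, and 54 were lower in KO at an adjusted p under 0.05 (edgeR quasi-likelihood test with Benjamini-Hochberg adjustment over the 13680 genes tested, in every adjusted p given here), where 19.0% of all genes tested were called lower. 3 members, *Pttg1*, *Tpx2* and *Cenpe*, were higher, where 18.1% of all genes tested were called higher. *Bub3*, *Gtse1* and *Kif15* did not pass the test. With upper-quartile scaling 55 members were lower and 3 higher, while the calls over all genes moved from 2604 lower and 2470 higher to 3356 lower and 2095 higher. With the replicate number as a block 55 members were lower and 3 higher, and over all genes 3615 were lower and 3343 higher. The median log2 fold change, KO against WT, was -1.13 over the members and -0.02 over all genes tested, and the members ranged from -2.00 (*Cenpf*) to 1.11 (*Pttg1*).

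At a log2 fold change under -1 and an adjusted p under 0.01, 38 members were lower, against 2.99% of all genes tested. At a log2 fold change over 1 with the same adjusted p, 1 member was higher (*Pttg1*), against 3.36%. In 55 members every KO library lay under every WT library, against 26.8% of all genes tested, and in 3 members every KO library lay over every WT library, against 24.0%. In bulk RNA, fewer cycling cells and less of these transcripts per cycling cell cannot be told apart.

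**Figure D1:**
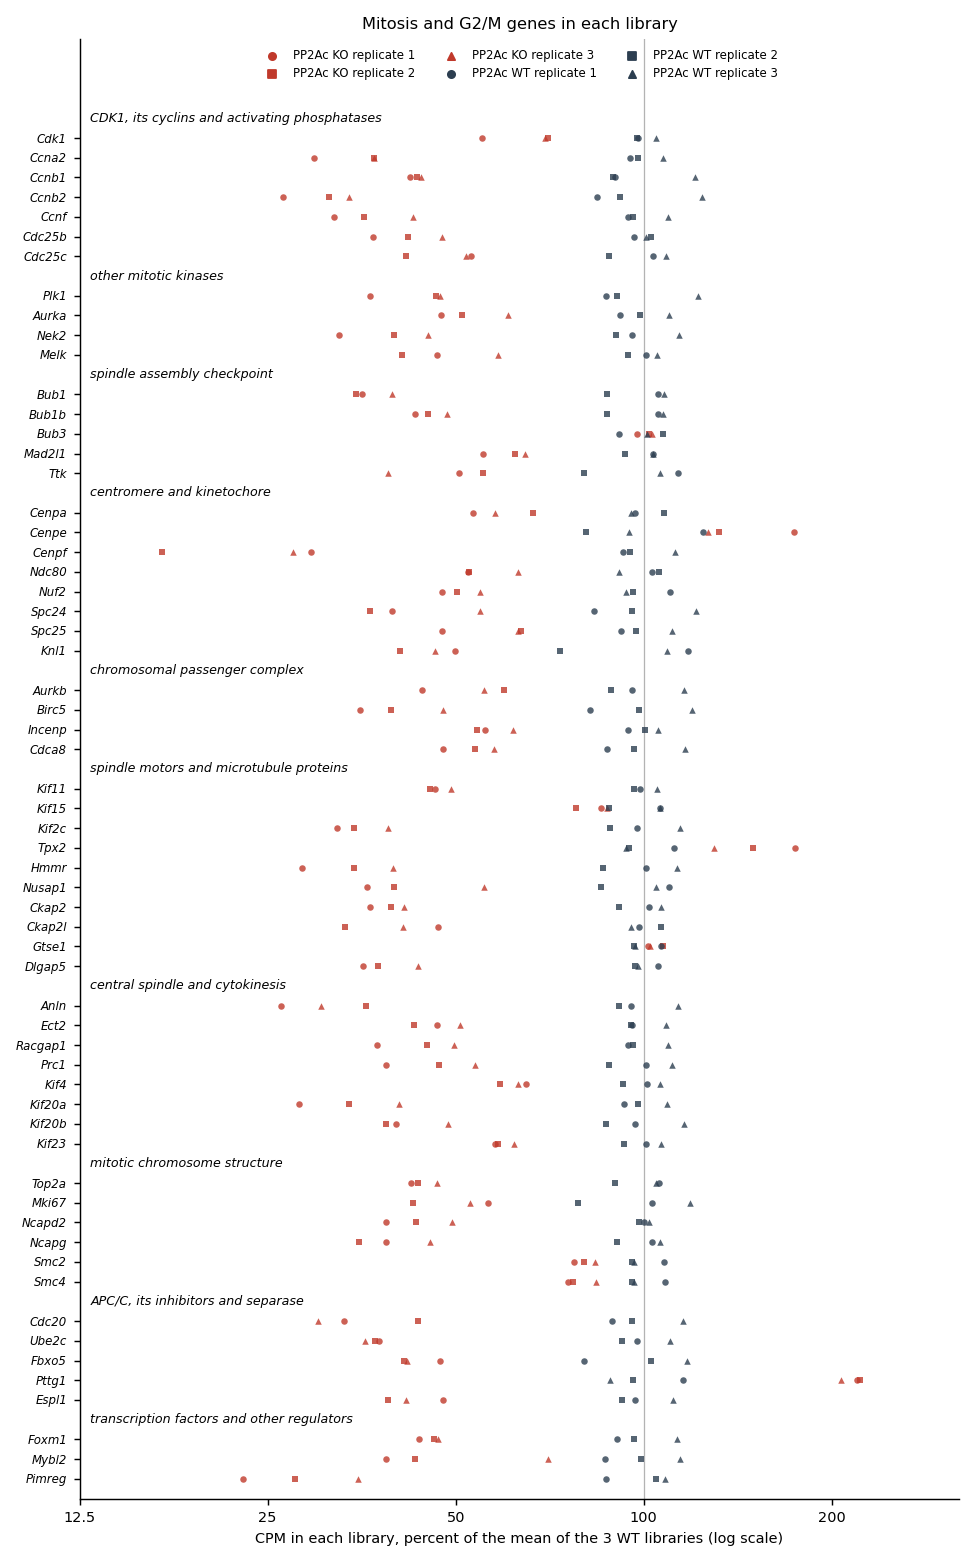
Level of each of the 60 members in each of the 6 libraries, as CPM in percent of the mean of the 3 WT libraries (log scale), grouped by role, with red symbols for KO, dark symbols for WT and shapes for replicate numbers. In 55 members the red symbols all lie left of the dark ones, and in *Pttg1*, *Tpx2* and *Cenpe* they all lie right of them.

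The fall was of like size in the 3 KO libraries. The median member stood at 43.9%, 43.3% and 49.2% of its WT mean in KO replicates 1 to 3, and at 97.7%, 95.3% and 107.9% in WT replicates 1 to 3. The summed level of the members ran from 580 to 600 CPM in the KO libraries and from 834 to 909 CPM in the WT libraries. The sum was 66.4% to 68.7% of its WT mean in the KO libraries. It holds *Bub3*, *Pttg1*, *Tpx2* and *Cenpe*, at means of 51.7, 33.1, 28.0 and 26.9 CPM in WT, which were not lower in KO. It also holds *Smc4* and *Smc2*, at 45.9 and 35.2 CPM in WT, which fell by less than the median member. KO replicate 3 was the highest KO library in 39 of 60 members, against 34.9% of all genes tested, and WT replicate 3 the highest WT library in 42 of 60, against 31.8%.

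Per exon length, as RPKM (CPM divided by exon length in kilobases), the members were mostly low in these macrophages. In WT, *Pttg1* was highest at 16.5 ± 2.31 RPKM (SD, n = 3), followed by *Cenpa* at 13.4, *Incenp* at 11.7, *Smc4* at 8.82 and *Bub3* at 7.37 RPKM, and *Cdc25c* was lowest at 0.281 RPKM. In KO, *Pttg1* stood at 35.7 RPKM and *Tpx2*, at 9.05 RPKM, came next. Across the 60 members the log2 fold change had a Spearman correlation of 0.284 with the mean log2 RPKM in WT, given as a description, since the members share the same 6 libraries and the WT level enters both measures.

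**Figure D2:**
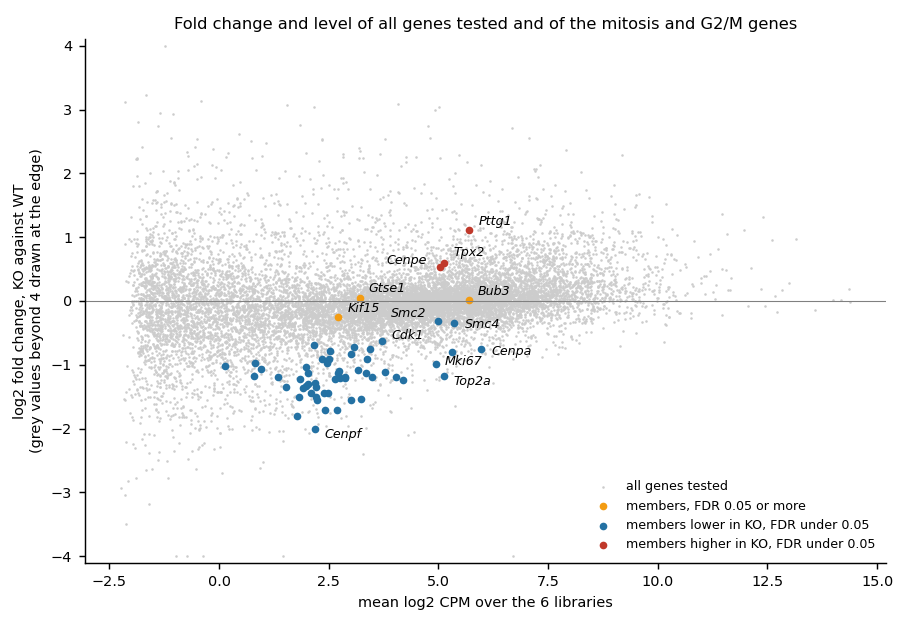
Log2 fold change, KO against WT, against the mean log2 CPM over the 6 libraries, for all 13680 genes tested (grey) and the 60 members (blue, lower; red, higher; orange, not called). The blue members form a band between log2 fold changes of -2.00 and -0.31, and *Smc2* and *Smc4* lie at its upper edge.

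The promoters of the members were searched for the letters of the elements that G2/M promoters are known for. These are the cell cycle genes homology region (CHR), which MuvB binds (TTTGAA or TTCGAA, with the reverse strand of the former TTCAAA), and the CCAAT box, which NF-Y binds (CCAAT, reverse ATTGG). Both strands were searched, and neither set of letters contains the other. RefSeq promoter windows (GRCm38.p6, 250 bases before to 50 bases after the start) were found for 49 of the 60 members, with 53 windows in all. Stretches of up to 100 bases before the start were cut so as to hold no base that the GENCODE annotation places in an exon, and kept at 60 bases or more. The sequences here are the 5 members whose stretch holds both kinds of letters, all of them lower in KO, and then *Cenpe* and *Gtse1*, which were not lower. Each is given 5′ to 3′ on the strand of the gene, and the capitals mark the CHR and CCAAT letters.
Top2a, chr11:99024190-99024289, minus strand: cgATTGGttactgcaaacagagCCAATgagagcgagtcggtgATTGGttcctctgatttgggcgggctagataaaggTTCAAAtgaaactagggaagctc
Cdk1, chr10:69352939-69353012, minus strand: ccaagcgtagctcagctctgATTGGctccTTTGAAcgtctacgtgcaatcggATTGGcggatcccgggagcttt
Kif11, chr19:37376282-37376381, plus strand: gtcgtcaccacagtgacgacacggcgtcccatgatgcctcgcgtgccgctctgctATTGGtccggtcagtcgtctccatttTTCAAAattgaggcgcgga
Cdc20, chr4:118437353-118437443, minus strand: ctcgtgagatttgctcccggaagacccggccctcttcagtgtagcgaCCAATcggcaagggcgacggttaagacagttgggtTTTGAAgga
Ckap2l, chr2:129297213-129297312, minus strand: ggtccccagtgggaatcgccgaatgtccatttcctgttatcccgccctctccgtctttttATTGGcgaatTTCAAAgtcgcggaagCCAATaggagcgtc
Cenpe, chr3:135212463-135212536, plus strand: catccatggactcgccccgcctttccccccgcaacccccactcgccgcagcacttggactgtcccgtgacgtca
Gtse1, chr15:85859607-85859706, plus strand: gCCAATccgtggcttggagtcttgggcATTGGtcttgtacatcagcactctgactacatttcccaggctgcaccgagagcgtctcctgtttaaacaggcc

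Within the printed stretches of *Top2a*, *Kif11* and *Cdc20*, the CHR letters lie closer to the start than every CCAAT box. In those of *Cdk1* and *Ckap2l* they lie between a pair of CCAAT boxes. This order depends on the cut. Past it, *Cdk1* has further CHR letters at bases -15 to -10, and *Cdc20* has a CCAAT box at bases -8 to -4. The *Cenpe* stretch holds neither, and its window has a CCAAT box only between bases -12 and -8, inside an annotated exon. *Gtse1* holds CCAAT boxes and no CHR letters. The lower members printed were picked for holding both kinds, so the contrast with *Cenpe* and *Gtse1* comes from that choice. The stretches of *Smc2*, *Bub1b*, *Mad2l1*, *Anln*, *Kif20b*, *Nuf2*, *Birc5*, *Knl1*, *Kif2c* and *Mybl2*, all lower in KO, hold neither kind.

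Over all member windows, 41 of 53 (77.4%) held the CHR letters, against 19.2% of all 32851 RefSeq promoter windows. Within 50 bases of the start the shares were 67.9% and 5.31%. The CCAAT letters were in 75.5% of the member windows and in 37.4% of all windows, and both kinds together in 66.0% and 7.52%. By gene, 36 of 44 members lower in KO (81.8%) held the CHR letters in some window. Of those not lower only 5 have windows, too few for a comparison, and *Bub3* and *Kif15* among them hold the letters. *Ccnb1*, *Birc5* and *Nek2*, all lower, do not hold them. The CHR letters were also more frequent than in all windows in lists close to the members. They were in 51.2% of windows of other spindle, motor and cytokinesis genes and 47.6% of other chromosome structure genes. The shares were 38.5% in the DREAM and B-MYB list and 36.6% in other kinetochore genes. In DNA replication and S phase genes the CHR letters were in 17.9% of windows, and in APC/C subunits in 16.7%. The PP2A-linked list had 13.3% and the G2 checkpoint list 9.09%. A match is a description of the letters in these windows and not of binding. The members were listed as G2/M genes, for which these letters are known, so the shares describe the list and not its fall in KO.

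**Figure D3:**
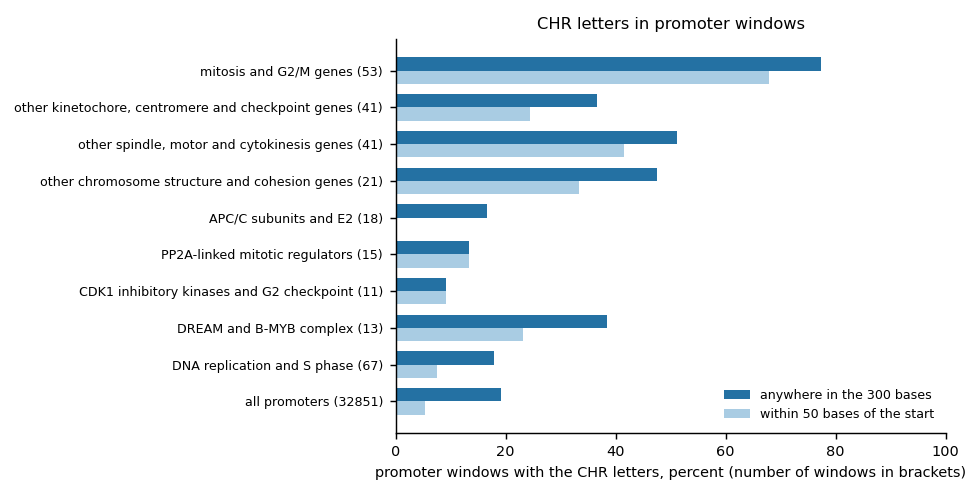
Share of promoter windows with the CHR letters, in percent, anywhere in the 300 bases (dark bars) and within 50 bases of the start (light bars), for the members, for the other lists of cell cycle genes and for all 32851 windows. The members have the longest bars (77.4% and 67.9%), followed by other spindle genes (51.2% and 41.5%). The S phase genes (17.9%) lie near all promoters (19.2%).

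CDK1, its cyclins and its activating phosphatases were lower in 7 of 7 genes, with a median log2 fold change of -1.25. *Cdk1*, the kinase that drives entry into mitosis, was at 8.77, 11.2 and 11.1 CPM in KO replicates 1 to 3 and at 15.6, 15.5 and 16.7 CPM in WT replicates 1 to 3. Its log2 fold change was -0.62 (SE 0.10, edgeR adjusted p = 0.00136), the smallest fall of the group. The B-type cyclins that activate it were lower still. *Ccnb1* had 3.96, 4.06 and 4.12 CPM in KO against 8.43, 8.37 and 11.3 CPM in WT, a log2 fold change of -1.21 (SE 0.14, edgeR adjusted p = 0.000232). *Ccnb2* had 2.12, 2.51 and 2.71 CPM against 6.76, 7.36 and 9.95 CPM, a log2 fold change of -1.71 (SE 0.17, edgeR adjusted p = 0.000148). For *Ccnb1* the value is less certain, since 23.4% of its windows of 50 bases also occur in other genes, among them its pseudogene *Ccnb1-ps*.

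*Cdc25b*, the phosphatase that removes the inhibitory phosphates from CDK1 and the most abundant gene of this group, was at 9.50, 10.8 and 12.3 CPM in KO and at 24.9, 26.5 and 26.0 CPM in WT. It fell by 1.25 on the log2 scale (SE 0.09, edgeR adjusted p = 5.51e-05). The groups did not overlap in any of the 7 genes. *Ccna2* (cyclin A2, -1.53), *Ccnf* (cyclin F, -1.44) and the phosphatase *Cdc25c* (-1.02) completed the group, the last at under 1 CPM in each KO library.

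The other mitotic kinases were lower in 4 of 4 genes, with a median log2 fold change of -1.12. *Plk1*, which acts at centrosomes, kinetochores and the cleavage site, was at 3.70, 4.73 and 4.79 CPM in KO and at 8.84, 9.20 and 12.4 CPM in WT (log2 fold change -1.20, SE 0.16, edgeR adjusted p = 0.000474). *Nek2*, a kinase of centrosome separation, was at 2.12, 2.61 and 2.95 CPM against 6.26, 5.89 and 7.44 CPM, the largest fall of this group (-1.35, SE 0.15, edgeR adjusted p = 0.00023). KO and WT did not overlap in either gene. *Aurka*, the spindle pole kinase, fell by 0.91 and *Melk* by 1.03 on the log2 scale. Of the windows of *Plk1*, 6.56% are shared with its pseudogene *Plk-ps1*.

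The spindle assembly checkpoint was split: 4 of 5 genes were lower and *Bub3* did not pass the test. *Bub1*, the kinase that recruits checkpoint proteins to kinetochores, was at 2.17, 2.12 and 2.42 CPM in KO and at 6.44, 5.33 and 6.58 CPM in WT (log2 fold change -1.45, SE 0.13, edgeR adjusted p = 9.73e-05). *Bub3*, which brings BUB1 and BUBR1 to phosphorylated KNL1 and also has roles outside mitosis, was at 50.4, 52.7 and 53.2 CPM in KO and at 47.2, 55.5 and 52.3 CPM in WT. The groups overlapped, and the log2 fold change of 0.01 (SE 0.07, edgeR adjusted p = 0.906) turned to -0.05 with upper-quartile scaling, so no direction can be given. As counts, *Bub3* over *Bub1* was 22.0 to 24.9 in the KO libraries and 7.33 to 10.4 in the WT libraries. *Bub1b* (BUBR1, -1.13), the kinase *Ttk* (-1.06) and *Mad2l1* (-0.72) fell.

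In the centromere and kinetochore group 7 of 8 genes were lower and *Cenpe* was higher. *Cenpa*, the histone H3 variant that marks centromeres and the most abundant of these 8 genes per exon length, was at 41.9, 52.3 and 45.6 CPM in KO and at 76.2, 84.9 and 75.2 CPM in WT (log2 fold change -0.76, SE 0.09, edgeR adjusted p = 0.000281). *Cenpf*, a large kinetochore protein that accumulates in G2 (ENSMUSG00000026605.14, chr1:189640606-189688086 in GRCm38, minus strand), had the largest fall of all members. It was at 2.10, 1.21 and 1.97 CPM in KO and at 6.64, 6.81 and 8.04 CPM in WT, or 24.5% of the WT mean, with a log2 fold change of -2.00 (SE 0.18, edgeR adjusted p = 9.74e-05).

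*Cenpe*, the kinesin that carries chromosomes to the spindle equator (ENSMUSG00000045328.11, chr3:135212537-135273611, plus strand), was at 46.9, 35.5 and 34.2 CPM in KO and at 33.6, 21.7 and 25.5 CPM in WT. Every KO library lay over every WT library, with KO replicate 3 close to WT replicate 1. The log2 fold change of 0.53 (SE 0.16, edgeR adjusted p = 0.0318) was lost as a call without KO replicate 1 (0.36, adjusted p = 0.122), without WT replicate 2 (0.40, adjusted p = 0.105) and without WT replicate 3 (0.49, adjusted p = 0.0651), in fits without the replicate block. With the replicate number as a block and all 6 libraries it was 0.53 (edgeR adjusted p = 2.16e-05). That pairing was taken from these data and not from the labels, so this fit does not settle the call. The other kinetochore genes fell: *Ndc80* by 0.84, *Nuf2* by 0.98, *Spc24* by 1.18 and *Spc25* by 0.79 on the log2 scale, these 4 forming the NDC80 complex that binds microtubules, and *Knl1*, the scaffold of the checkpoint, by 1.13. Within the NDC80 complex the summed counts of *Ndc80* and *Nuf2* over those of *Spc24* and *Spc25* overlapped between the groups, at 1.64 to 2.00 in KO and 1.47 to 2.14 in WT.

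The chromosomal passenger complex, which corrects faulty attachments and acts again in cytokinesis, was lower in 4 of 4 genes. Its kinase *Aurkb* was at 3.23, 4.36 and 4.05 CPM in KO and at 6.99, 6.46 and 8.47 CPM in WT (log2 fold change -0.92, SE 0.15, edgeR adjusted p = 0.00126). *Incenp*, its scaffold, was at 28.1, 27.4 and 31.2 CPM against 47.6, 50.7 and 53.2 CPM (-0.81, SE 0.07, edgeR adjusted p = 9.68e-05). *Birc5* (survivin), which brings the complex to centromeres, was at 2.24, 2.51 and 3.04 CPM against 5.23, 6.28 and 7.63 CPM (-1.29, SE 0.17, edgeR adjusted p = 0.000508). The groups were apart in each of these genes, and the fall of *Cdca8* (borealin) was 0.92 on the log2 scale.

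Of 10 spindle motors and microtubule proteins, 7 were lower, *Tpx2* was higher, and *Kif15* and *Gtse1* did not pass the test. *Tpx2*, which nucleates spindle microtubules and activates Aurora A (ENSMUSG00000027469.16, chr2:152847964-152895321, plus strand), was the most abundant of them, at 48.9, 41.9 and 36.3 CPM in KO and at 31.3, 26.5 and 26.2 CPM in WT. Every KO library lay over every WT library, with a log2 fold change of 0.59 (SE 0.11, edgeR adjusted p = 0.00312) that stayed between 0.47 and 0.70 when any 1 library was left out. As counts, *Tpx2* over *Aurka* was 9.17 to 15.8 in KO and 3.66 to 5.24 in WT. *Hmmr*, a spindle pole protein that binds TPX2, had the largest fall here, from 6.94, 5.93 and 7.78 CPM in WT to 1.96, 2.36 and 2.73 CPM in KO (-1.55, SE 0.16, edgeR adjusted p = 0.000147).

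*Kif15*, a kinesin that can share the work of Eg5 in holding the spindle poles apart, was at 6.08, 5.54 and 6.21 CPM in KO and at 7.55, 6.25 and 7.54 CPM in WT. Every KO library lay under every WT library, by a narrow margin, and the log2 fold change was -0.26 (SE 0.11, edgeR adjusted p = 0.0932), or -0.26 with an adjusted p of 0.0229 with the replicate number as a block, and -0.32 (adjusted p = 0.0399) with upper-quartile scaling. *Gtse1*, which binds the tips of growing microtubules, overlapped at 9.17, 9.69 and 9.23 CPM in KO and 9.62, 8.71 and 8.73 CPM in WT, and its log2 fold change of 0.05 (SE 0.08, edgeR adjusted p = 0.664) turned to -0.01 with upper-quartile scaling. The kinesin Eg5 itself, *Kif11*, fell by 1.09, the microtubule depolymerase *Kif2c* by 1.50, *Dlgap5* by 1.36, *Ckap2* by 1.36, *Ckap2l* by 1.30 and *Nusap1* by 1.19 on the log2 scale.

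The central spindle and cytokinesis genes were lower in 8 of 8. *Prc1*, which bundles the antiparallel microtubules of the midzone, was at 7.21, 8.75 and 9.99 CPM in KO and at 18.8, 16.4 and 20.7 CPM in WT (log2 fold change -1.11, SE 0.13, edgeR adjusted p = 0.000274). *Anln* (anillin), the scaffold of the contractile ring, was at 2.55, 3.48 and 2.95 CPM against 9.24, 8.85 and 11.0 CPM, the largest fall of the group (-1.70, SE 0.14, edgeR adjusted p = 6.41e-05). The groups were well apart in both genes. *Kif20a* fell by 1.55, *Kif20b* by 1.23, *Racgap1* by 1.18, *Ect2* by 1.09, *Kif23* by 0.75 and *Kif4* by 0.68 on the log2 scale. *Kif23* and *Racgap1* encode the subunits of centralspindlin, and the ratio of their counts was 1.08 to 1.34 in the KO libraries and 0.838 to 0.927 in the WT libraries, without overlap.

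Exons of *Prc1* overlap *Rccd1* on the opposite strand over 911 bases, those of *Kif20a* overlap *Cdc23* over 1271 bases, and those of *Kif4* overlap *Pdzd11* over 832 bases. The libraries were made with a directional kit, but the strand setting of the counting is not given in the sources used here, so reads of these pairs may not be fully separated. The same holds for *Ccna2*, *Ube2c*, *Ncapg* and *Cdc25c*, which overlap *Exosc9*, *Tnnc2*, *Lcorl* and *Gm3550* over 510, 592, 944 and 623 bases. Some other members have shorter overlaps on the opposite strand, of at most 298 bases (*Nek2*). On the same strand, exons of *Ncapd2*, *Foxm1*, *Top2a* and *Ccnf* overlap other genes over 472, 241, 122 and 8 bases. *Pttg1*, *Tpx2*, *Cenpe*, *Bub3*, *Kif15* and *Gtse1* have no exon overlap in the GENCODE annotation.

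Mitotic chromosome structure genes were lower in 6 of 6, with a spread between subunits of condensin, the complex that compacts mitotic chromosomes. *Top2a*, the topoisomerase that untangles sister DNA, was at 20.6, 21.1 and 22.6 CPM in KO and at 51.3, 43.6 and 50.7 CPM in WT (log2 fold change -1.18, SE 0.08, edgeR adjusted p = 5.07e-05). *Mki67*, the proliferation marker Ki-67 that coats mitotic chromosomes, was at 23.0, 17.5 and 21.5 CPM against 42.1, 32.1 and 48.4 CPM (-0.98, SE 0.15, edgeR adjusted p = 0.000981). *Ncapg*, a subunit of condensin I, was at 2.15, 1.94 and 2.52 CPM against 5.72, 5.01 and 5.89 CPM (-1.33, SE 0.14, edgeR adjusted p = 0.00016). KO and WT were apart in all of these.

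*Ncapd2*, another condensin I subunit, fell by 1.19 on the log2 scale, whereas *Smc2* and *Smc4*, the ATPase core that condensin I and condensin II share, fell by 0.31 (SE 0.07, edgeR adjusted p = 0.00628) and 0.34 (SE 0.07, edgeR adjusted p = 0.00492). The summed counts of *Smc2* and *Smc4* over those of *Ncapd2* and *Ncapg* were 5.70, 5.44 and 4.98 in KO replicates 1 to 3 and 3.09, 2.86 and 2.71 in WT replicates 1 to 3. Outside the members, the condensin I subunit *Ncaph* fell by 1.13 (edgeR adjusted p = 0.000375). The condensin II subunit *Ncapg2* rose by 0.56 on the log2 scale (edgeR adjusted p = 0.0145). Both are named as extremes among the called genes of their list. Other subunits particular to condensin II are not given here, so no split between the complexes is drawn.

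Among the APC/C co-activator, enzyme and inhibitors with separase, 4 of 5 genes were lower and *Pttg1* was higher. *Cdc20*, which activates APC/C in mitosis, was at 2.22, 2.91 and 2.01 CPM in KO and at 5.94, 6.39 and 7.70 CPM in WT (log2 fold change -1.50, SE 0.16, edgeR adjusted p = 0.0002). *Pttg1* (securin), the inhibitor of separase that APC/C destroys at anaphase (ENSMUSG00000020415.16, chr11:43420250-43426251, minus strand), was at 72.6, 73.4 and 68.2 CPM in KO and at 38.2, 31.8 and 29.2 CPM in WT. Every KO library lay well over every WT library, and the log2 fold change was 1.11 (SE 0.09, edgeR adjusted p = 7.87e-05), which ran from 1.03 to 1.23 when any 1 library was left out. Its partner *Espl1* (separase) fell by 1.22, and the counts of *Pttg1* over those of *Espl1* were 31.1 to 38.5 in KO and 5.37 to 8.07 in WT. *Ube2c*, the ubiquitin-conjugating enzyme of APC/C, fell by 1.44 and its inhibitor *Fbxo5* (EMI1) by 1.19. Of the windows of *Cdc20* and *Fbxo5*, 10.4% and 8.71% are shared with other genes.

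The transcription factors and other regulators were lower in 3 of 3. *Foxm1*, the activator of G2/M genes, was at 3.87, 4.09 and 4.15 CPM in KO and at 8.01, 8.55 and 9.99 CPM in WT (log2 fold change -1.13, SE 0.11, edgeR adjusted p = 0.00014). *Pimreg*, a mitotic protein, was at 1.18, 1.42 and 1.80 CPM against 4.49, 5.40 and 5.58 CPM (-1.81, SE 0.17, edgeR adjusted p = 0.000125). *Mybl2* (B-MYB) was low in both groups and fell by 0.97 (SE 0.24, edgeR adjusted p = 0.0108), with 19.3% of its windows shared with other genes. The groups did not overlap in these 3 genes.

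Other cell cycle genes were counted in the same way. For each list, the shares to set beside the counts are 19.0% lower and 18.1% higher over all genes tested. Of 159 further mitotic, checkpoint and regulatory genes tested, 69 were lower and 19 higher (median log2 fold change -0.18). Of 43 other spindle, motor and cytokinesis genes, 27 were lower and 2 higher (median -0.79), led by *Fam83d* (-2.08) and *Depdc1b* (-1.95), with the centriole genes *Cenpj* (0.81) and *Sass6* (0.70) higher. Of 39 other kinetochore, centromere and checkpoint genes, 21 were lower and 2 higher (median -0.28), led by the kinetochore genes *Ska1* (-2.23) and *Ska3* (-1.72), with *Cenpl* (0.40) and *Mad2l2* (0.37) higher. Of 23 other chromosome structure and cohesion genes, 9 were lower and 4 higher (median -0.06), among them *Esco2* (-1.13) and the lamin *Lmnb1* (0.75). The share of higher genes in this list was near the 18.1% of all genes tested. The 21 lower kinetochore genes dropped to 12 without KO replicate 1 and to 13 without KO replicate 3 or WT replicate 2, and the 4 higher chromosome genes to 2 without KO replicate 1.

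Subunits of APC/C itself and its E2 enzymes mostly did not pass the test (median -0.03): 2 of 16 were lower, a share under the 19.0% of all genes tested, *Cdc23* (-0.39) and *Anapc7* (-0.18), and the other 14 did not pass, although 2 were called higher with the replicate number as a block. Exons of *Cdc23* overlap those of the lower member *Kif20a* on the opposite strand, so reads of the pair may not be fully separated. Of 14 PP2A-linked mitotic regulators 3 were lower and 3 higher (median 0.07), shares near those of all genes tested (19.0% lower and 18.1% higher). They included the PP2A regulatory subunits *Ppp2r5a* (0.66) and *Ppp2r2a* (0.65) and, among the lower genes, *Cdca2* (-1.68), which targets PP1 to chromatin, and *Ppp1cc* (-0.27). Of 13 CDK1 inhibitory kinase and G2 checkpoint genes (median -0.56) 6 were lower, among them *Gadd45a* (-1.52) and the CDK1 inhibitor *Wee1* (-0.78), and 4 were higher, among them cyclin D1 (*Ccnd1*, 1.28) and *Gadd45b* (1.11). A list of 13 DREAM and B-MYB complex genes and E2F factors had a median of 0.02. In it 3 were lower, among them *E2f7* (-1.42) and *Tfdp2* (-0.59), and 4 higher, among them *Rbl1* (p107, 1.09) and *E2f8* (0.37). Only 1 was higher without WT replicate 2 and 2 without KO replicate 2 or WT replicate 3. For this list and the G2 checkpoint list, the shares over all genes tested were again 19.0% lower and 18.1% higher. Of the APC/C genes, 1 was lower when any of the KO libraries, WT replicate 2 or WT replicate 3 was left out.

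DNA replication and S phase genes, the targets of E2F at the G1/S transition, were lower in 33 and higher in 4 of 70 tested (8 higher with the replicate number as a block, 7 without WT replicate 1, and 2 without KO replicate 2, KO replicate 3, WT replicate 2 or WT replicate 3). Their median log2 fold change was -0.25, and over all genes tested 19.0% were lower and 18.1% higher. *Rrm2* (-2.05), the ribonucleotide reductase subunit of S phase, and *Clspn* (-1.65), a replication checkpoint adaptor, fell most, and *Timeless* (1.02) and *Rfc3* (0.81) rose. The summed level of the list was 94.0% to 95.1% of the WT mean in the KO libraries, against 66.4% to 68.7% for the members. Both percentages depend on the TMM scaling. The difference between the lists was not tested.

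**Figure D4:**
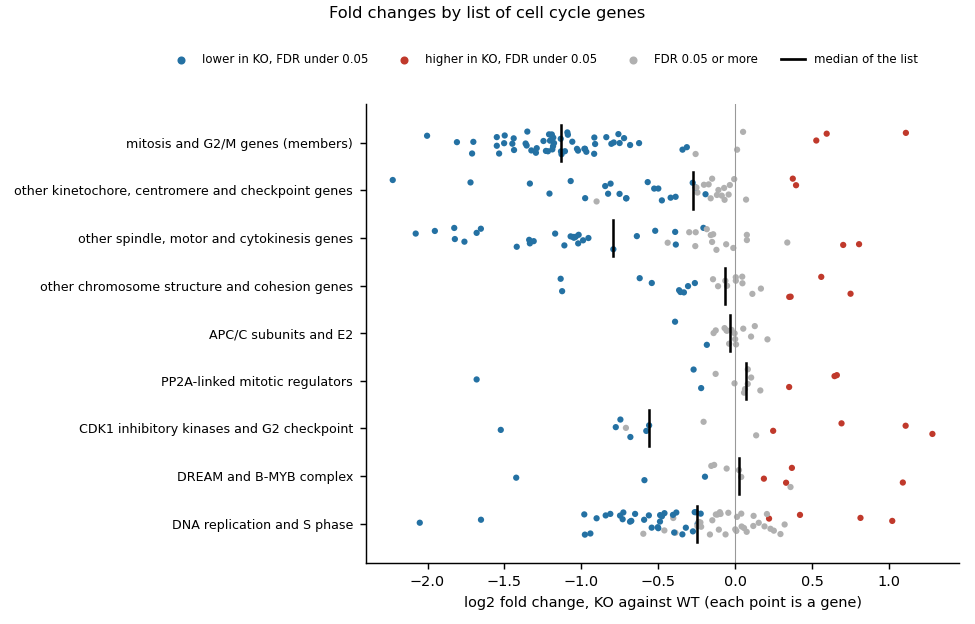
Log2 fold change, KO against WT, of each gene tested in the members and in 8 further lists of cell cycle genes, with blue points lower, red points higher and grey points at an adjusted p of 0.05 or more, and a bar at each median. The median lies at -1.13 for the members, -0.79 for other spindle genes and -0.25 for S phase genes, and close to 0 for the APC/C subunits.

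Fibroblast and stromal cell markers were also lower in KO, in 13 of 14 tested of 15 listed (median -1.70), where 19.0% of all genes tested were lower. Their summed levels were 37.3 to 54.0 CPM in KO and 126 to 176 CPM in WT. *Col1a1*, the collagen chain of fibroblasts, was at 8.53, 7.12 and 6.66 CPM in KO and at 34.7, 34.7 and 26.7 CPM in WT, while *Lum* had at most 6 counts in a library. Within each group, replicate 3 had the lowest fibroblast sum and the highest median member. Their part in the lower members was not tested.

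Hematopoietic progenitor markers summed to 10.6 to 11.5 CPM in KO and 15.5 to 18.9 CPM in WT. Of 6 tested of 10 listed, *Sox4* was lower (-1.80), *Cd34* higher (0.99) and 4 did not pass the test, with a median log2 fold change of 0.10. *Sox4* alone fell from 9.38, 11.9 and 12.6 CPM in WT to 3.37, 2.94 and 3.38 CPM in KO, and the granule genes *Elane*, *Prtn3* and *Ctsg*, which define early myeloid cells, had at most 3 counts in any library. Macrophage markers were higher in 5 of 14 (9 under the replicate block), the others not passing the test, with sums of 11177 to 11281 CPM in KO and 9253 to 9939 CPM in WT. The TMM factors, lower in each KO library than in each WT library, enter these sums, so their difference depends on the scaling. Dendritic cell markers were higher in 3 of 5 tested, among them *Bst2* (log2 fold change 1.10, mean log2 CPM 8.07). Endothelial markers were higher in 2 of 3, and neutrophil and T and NK cell markers in 1 of 3 each. For comparison with all these marker counts, 18.1% of all genes tested were higher and 19.0% lower. Of the B cell markers 1 of 3 was lower, and no erythroid or mast cell and basophil marker passed the filter. Whether these markers, *Bst2* among them, come from the cell types they are listed under or from the macrophages cannot be told in bulk RNA. Any part of such cells in the level of the mitosis and G2/M genes was not tested.

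**Figure D5:**
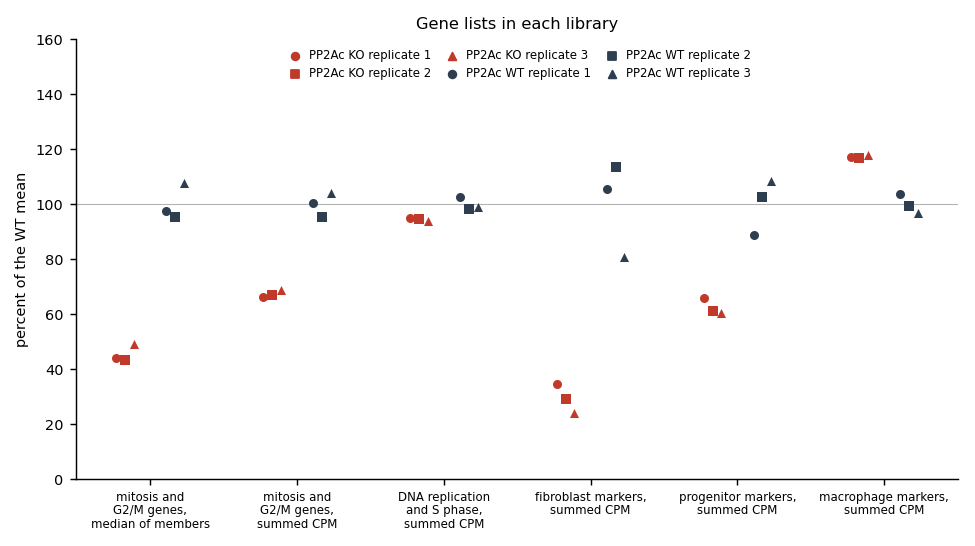
Gene lists in each library, in percent of the mean of the 3 WT libraries, with red symbols for KO and dark symbols for WT. The median member lies at 43.3% to 49.2% in KO, the summed members at 66.4% to 68.7%, S phase genes at 94.0% to 95.1%, fibroblast markers at 24.0% to 34.7% and macrophage markers at 116.8% to 117.9%.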

How the data were processed

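BMDM RNA was enriched for poly(A), made into directional libraries and sequenced in pairs, per the labels. The authors deposited a table of whole-number read counts per gene symbol, without normalization. Build mm10 (GRCm38) and fastp 0.20.0, kallisto 0.46.1, STAR 2.7.1a, HTSeq 0.11.2, edgeR 3.34.0 and limma 3.48.3 are named in the submitters' processing notes, which give no role for them; annotation release and strand setting are not given in the sources used here.

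Tests were run on these counts in edgeR 4.0.16 under R 4.3.3 (filterByExpr with a minimum count of 10 and total of 15, TMM scaling, glmQLFit and glmQLFTest, genotype as the term), over 13680 genes, with Benjamini-Hochberg adjustment and a threshold of 0.05. The stricter counts use 0.01 and a log2 fold change of 1. SE is the log2 fold change over the square root of its F statistic. An exact permutation test of 3 against 3 libraries cannot give a p under 0.1. RPKM used merged GENCODE M21 exons, in which 98.3% of the symbols occur. Totals of 35257156 to 47390899 put 3 counts, taken as the floor, at 0.0604 to 0.0909 CPM, for counting error only. DESeq2 1.42.0, limma-voom (limma 3.58.1), other scalings, filters, single libraries left out and a replicate block were alternatives. The code was tested on simulated counts. Same-numbered libraries deviated together (correlations of deviations from group means 0.289, 0.148 and 0.337 over all genes). The numbers were therefore taken as pairing the libraries from the data, but only in the fits with the replicate block. The main tests leave this pairing out, and the labels do not say what a number marks.

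The members, gene lists and motifs were chosen with earlier results of these data known. Values in every library are given for the member with the highest mean CPM in WT and the largest called change in each of 10 role groups, for members not called or opposite to the median, and for *Cdk1*, *Ccnb1*, *Plk1*, *Aurkb*, *Mki67*, *Top2a* and *Foxm1*. In the other lists, at most the 2 called genes lowest and the 2 highest are named. Every other member is given by its fold change. *Smc2*, *Smc4*, *Col1a1*, *Lum*, *Bst2* and the progenitor markers were named after their values were seen. Shared windows are stretches of 50 bases that also occur in transcripts of other genes.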

Additional observations from a re-analysis of the deposited data

How the results depend on the processing

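The members called lower numbered 54 or 55 and those called higher 2 or 3 under every alternative run (RLE and upper-quartile scaling, no filter, a minimum of 10 counts per library, a replicate block, DESeq2, limma-voom and each library left out), with 34 to 41 members past the stricter threshold and a median log2 fold change of -1.20 to -1.04. Leaving out 1 library gave -0.049 to 0.069 for *Bub3*, which was negative without KO replicate 3 and without WT replicate 1. With upper-quartile scaling *Bub3* was -0.052 and *Gtse1* -0.011, neither of them called in any fit, and the median of all genes moved from -0.02 to -0.09. *Cenpe* lost its call without KO replicate 1, WT replicate 2 or WT replicate 3 (0.36 to 0.72 over all libraries left out). The replicate block changed no member's call other than that of *Kif15* (-0.26, adjusted p = 0.0229, edgeR). The cause was not tested. Members under 1 CPM in KO, such as *Cdc25c*, rest on few counts, and the design has 3 libraries a group.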
